A study of Mus musculus with 12 samples.

Results

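The genes flanking the Lepr locus are the genes of mouse chromosome 4 whose start lies within 20 Mb of the start of Lepr, the leptin receptor gene that carries the db mutation. The window was laid on the coordinates of the deposited count table, in which Lepr (ENSMUSG00000057722) spans chr4:101574601-101672549 on the plus strand of genome build GRCm39, and it held 791 of the 57490 genes in the table and 791 of the 2989 on chromosome 4. The outermost members were Gm11411, 19.96 Mb below Lepr, which is written -19.96, and Gm12878 at 19.92 Mb. The nearest genes outside the window were Gm11765 at -20.20 Mb and Gm12892 at 20.27 Mb. Of the members, 346 were protein coding, 151 were processed pseudogenes and 147 were long non-coding RNAs, with 311 below Lepr and 479 above it. The abundance filter kept 271 members for testing, 226 of them protein coding, 82 below Lepr and 188 above. Of the 520 others, 354 had no count in any mouse and 166 had at least 1 count in 1 mouse. Unless another set is named, counts of members below are among those 271, out of 17431 genes tested in all, of which 814 lay elsewhere on chromosome 4.

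Kidney polyA RNA was sequenced from 12 male mice aged 13 weeks, 4 in each of 3 groups. Ctrl mice were heterozygous db/+ animals of the BKS strain, labelled db/m and also wild-type, given purified water. Model mice were db/db mice of BKS background given purified water, and YHY mice were db/db mice of that background given a water extract of the Yiqi Huoxue Yangyin decoction at 6.24 g/mL. All 3 groups were dosed by gavage for 4 weeks, the volume being 50 µL for every 10 g a mouse weighed. The db/db mice were admitted for a high random blood glucose and the Ctrl mice for a low one, so genotype, obesity and diabetes cannot be told apart in these groups. Whole kidney is given as the tissue in the labels and renal cortex in the description of the series, and proximal tubule markers were detected in every mouse, 7 of 7. Total counts ran from 24415658 to 33276634 per mouse. Mitochondrial genes took 18.6, 22.7, 18.4 and 18.5% of counts in the Ctrl mice, 41.2, 58.9, 55.3 and 53.4% in the Model mice and 53.8, 64.6, 54.6 and 54.2% in the YHY mice. The db/db libraries thus all lay above the Ctrl libraries on that measure, and Model 1 was the lowest of the 8. With mitochondrial genes left out of the fit, 108, 136, 43 and 132 of 267 members passed for Model vs Ctrl, YHY vs Ctrl, YHY vs Model and db/db vs Ctrl, where 106, 135, 43 and 130 of 271 did with them, and any other part of this difference in the results that follow was not tested.

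A mutation moved onto an inbred background by repeated crossing stays joined to the stretch of chromosome on which it arose. Neighbouring genes can then carry variants of the donor haplotype that act on their own copy, which is called a cis effect. Whether these mice carry such a stretch around Lepr was not tested. Ctrl mice, as heterozygous db/+ animals, would hold a copy of the mutant chromosome as well. The db mutation changes splicing of Lepr so that the long receptor isoform, which relays the leptin signal through JAK2 and STAT3, is not made, while shorter isoforms remain. Among the neighbours are kidney genes of their own interest: the Cyp2j epoxygenases and the Cyp4a omega-hydroxylases, which turn arachidonic acid into products that act on renal vessels and salt transport.

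The sequences shown here belong to Lepr and to the Cyp2j cluster, where genes lying side by side moved in opposite directions. Whether these sequences play a part in that was not tested. For each, the 250 bases before the gene's start are printed 5′ to 3′ from RefSeq, whose coordinates are of build GRCm38.p6 and not those of the count table, with a motif match in capitals. The motifs searched on both strands were TATAAA, the core of the TATA box, TGTTCT, a core element of steroid receptors, AGGTCA, one of other nuclear receptors, and CCAAT, the CCAAT box. The first is the promoter of the mutated gene, and the next 3 belong to Cyp2j genes that fell in db/db kidney. The last 3 belong to Cyp2j genes that rose. Cyp2j7, which also rose, is not shown or counted here.
Lepr, chr4:101717157-101717406, plus strand: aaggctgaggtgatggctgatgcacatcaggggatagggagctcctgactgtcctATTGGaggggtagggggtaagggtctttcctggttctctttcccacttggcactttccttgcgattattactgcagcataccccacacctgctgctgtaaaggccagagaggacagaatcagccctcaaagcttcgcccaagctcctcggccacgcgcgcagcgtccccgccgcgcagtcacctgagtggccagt
Cyp2j5, chr4:96664120-96664369, minus strand: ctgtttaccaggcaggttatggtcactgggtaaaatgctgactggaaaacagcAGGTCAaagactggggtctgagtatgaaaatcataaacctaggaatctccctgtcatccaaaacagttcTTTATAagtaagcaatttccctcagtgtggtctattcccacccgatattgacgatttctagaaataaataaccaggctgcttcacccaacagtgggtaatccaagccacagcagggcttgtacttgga
Cyp2j11, chr4:96348681-96348930, minus strand: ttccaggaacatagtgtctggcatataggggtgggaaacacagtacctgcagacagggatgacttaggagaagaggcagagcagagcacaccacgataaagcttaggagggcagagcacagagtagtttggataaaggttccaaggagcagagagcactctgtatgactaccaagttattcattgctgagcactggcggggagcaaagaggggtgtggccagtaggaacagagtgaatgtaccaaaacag
Cyp2j13, chr4:96077548-96077797, minus strand: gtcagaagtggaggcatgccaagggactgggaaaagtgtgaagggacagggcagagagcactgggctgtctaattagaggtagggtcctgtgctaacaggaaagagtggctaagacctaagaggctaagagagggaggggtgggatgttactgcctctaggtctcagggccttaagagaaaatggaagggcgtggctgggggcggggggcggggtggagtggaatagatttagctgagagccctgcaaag
Cyp2j6, chr4:96553652-96553901, minus strand: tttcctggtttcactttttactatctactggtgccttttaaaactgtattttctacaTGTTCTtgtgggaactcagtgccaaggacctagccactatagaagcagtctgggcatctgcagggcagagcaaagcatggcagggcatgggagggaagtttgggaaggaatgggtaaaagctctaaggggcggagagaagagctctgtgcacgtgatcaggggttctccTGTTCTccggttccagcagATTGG
Cyp2j8, chr4:96507398-96507647, minus strand: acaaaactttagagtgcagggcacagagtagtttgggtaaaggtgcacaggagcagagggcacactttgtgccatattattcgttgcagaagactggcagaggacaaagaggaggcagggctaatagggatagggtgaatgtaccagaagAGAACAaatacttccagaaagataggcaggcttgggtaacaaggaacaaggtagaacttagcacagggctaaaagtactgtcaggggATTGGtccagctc
Cyp2j9, chr4:96591486-96591735, minus strand: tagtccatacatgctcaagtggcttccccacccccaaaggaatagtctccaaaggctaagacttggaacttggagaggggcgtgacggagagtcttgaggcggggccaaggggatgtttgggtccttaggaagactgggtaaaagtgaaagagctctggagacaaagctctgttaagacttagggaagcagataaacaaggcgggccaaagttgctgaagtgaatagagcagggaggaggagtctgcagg
Among 32851 RefSeq promoters of the same length, TATAAA was held by 12.4%, TGTTCT by 16.1%, AGGTCA by 14% and CCAAT by 33.8%. Of the 6 Cyp2j promoters, TATAAA was in 1 (Cyp2j5), TGTTCT in 2 (Cyp2j6 and Cyp2j8), AGGTCA in 1 (Cyp2j5) and CCAAT in 2 (Cyp2j6 and Cyp2j8). The Lepr promoter held CCAAT alone. Aligned in pairs, the Cyp2j promoters were 50.4 to 55.9% identical over 15 pairs, against 49.5 to 51.9% for Lepr with each of the 6. A match is a run of letters and not a shown binding site.

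A microRNA gene, Mir101a, lies below Lepr and within 1 Mb of it, inside the span of the long non-coding RNA E130102H24Rik that rose in db/db kidney. Its mature products in RefSeq are shown with the seed, bases 2 to 8, in capitals.
mmu-miR-101a-3p, chr4:101346957-101346977, minus strand: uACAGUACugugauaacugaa
mmu-miR-101a-5p, chr4:101346993-101347014, minus strand: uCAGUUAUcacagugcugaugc
The table listed 26 microRNA genes in the window, of which 12 had a mature sequence in RefSeq. Mir101a was at 0 counts in all 12 mice, 3 of the 26 had any count and the highest count in a mouse was 3, so polyA libraries gave no level for them.

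Lepr itself did not separate the genotypes. Its level in CPM, the count of a gene scaled by TMM to a common library size, was 10.7, 4.84, 9.97 and 11.7 in the Ctrl mice, 8.27, 6.62, 2.79 and 7.78 in the Model mice and 16.6, 7.13, 11.9 and 4.34 in the YHY mice. The 3 groups overlapped, with low mice in each and the highest mouse, YHY 1, among the db/db animals. The log2 fold change was -0.54 ± 0.39 (SE) for Model vs Ctrl, 0.11 ± 0.39 for YHY vs Ctrl and -0.22 ± 0.33 for all 8 db/db mice vs Ctrl, none of them past an adjusted P of 0.05. Leaving out 1 mouse moved them, Model vs Ctrl from -0.76 (without Ctrl 2) to -0.30 (without Model 3), YHY vs Ctrl from -0.26 (without YHY 1) to 0.35 (without YHY 4), with -0.11 without Ctrl 2, and db/db vs Ctrl from -0.43 (without Ctrl 2) to -0.10 (without YHY 4). Without Ctrl 2, Model 1 and YHY 4 together the Model vs Ctrl value became -0.96 with an adjusted P of 0.0468 (edgeR's quasi-likelihood test with Benjamini-Hochberg adjustment), the lowest of a range over the alternatives that reached 0.587. A two-sided exact permutation test of the CPM values gave P = 0.2 for Model vs Ctrl (adjusted 0.343), 0.8 for YHY vs Ctrl (adjusted 0.8), 0.257 for YHY vs Model (adjusted 0.343) and 0.651 for db/db vs Ctrl (adjusted 0.744), with Benjamini-Hochberg adjustment over the 8 permutation tests run. Counts for a whole gene do not separate the receptor isoforms, so these values do not check the genotype labels.

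**Figure D1:**
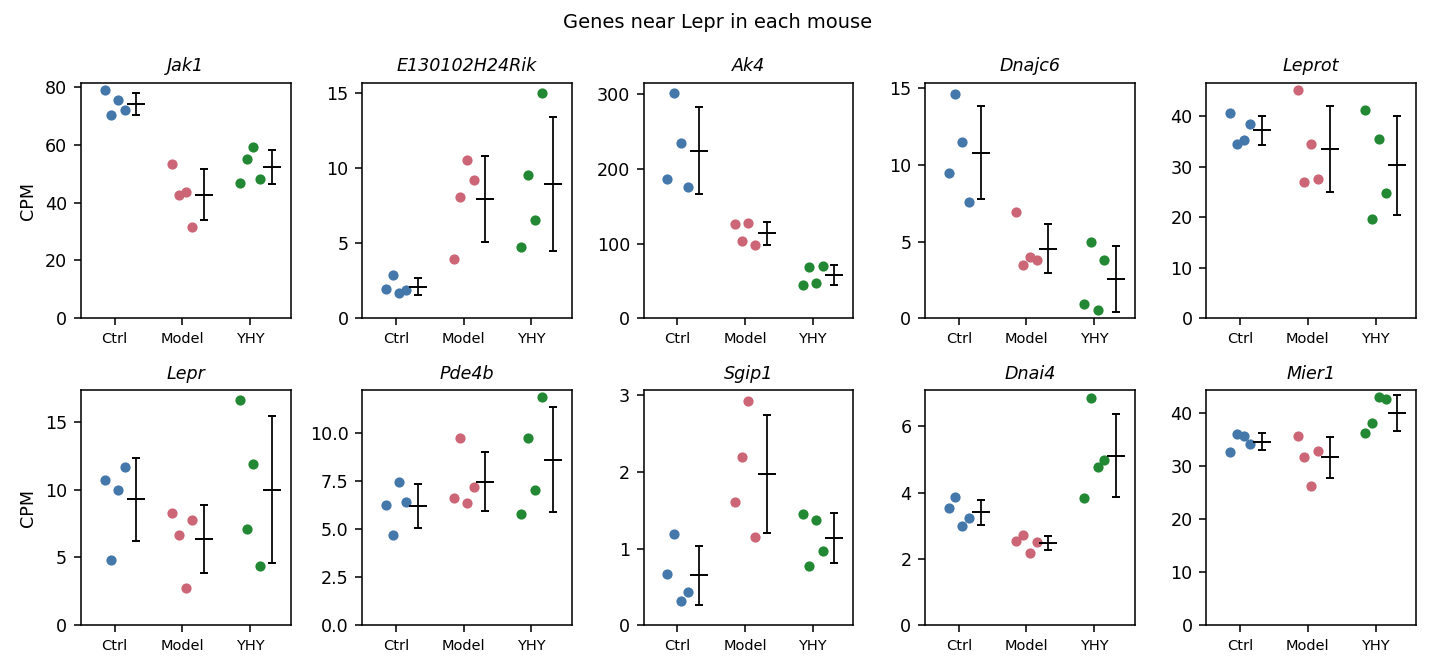
CPM of genes near Lepr in each of the 12 mice (dots), by group, with the mean and SD as bars. Lepr overlaps between the groups, Ak4, Jak1 and Dnajc6 are lower and E130102H24Rik higher in all 8 db/db mice.

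Within 1 Mb of Lepr 12 members were tested and 4 differed between db/db and Ctrl, 33.3% beside 49.5% of all genes tested. They were Jak1, Ak4, Dnajc6 and E130102H24Rik, all 4 of them below Lepr. Ak4, a mitochondrial adenylate kinase, was at 187, 302, 235 and 175 CPM in Ctrl, at 127, 104, 128 and 98.0 in Model and at 44.8, 68.4, 47.3 and 69.9 in YHY. The 3 groups did not overlap, YHY being the lowest. Ak4 fell by 1.47 ± 0.17 (SE) on the log2 scale in db/db vs Ctrl, adjusted P = 4.35e-06 by edgeR's quasi-likelihood test with Benjamini-Hochberg adjustment, and by 0.99 ± 0.20 in YHY vs Model, adjusted P = 0.0063. Jak1, a kinase that serves cytokine receptors, was at 79.0, 70.4, 75.5 and 72.1 CPM in Ctrl, at 53.3, 42.5, 43.8 and 31.5 in Model and at 46.6, 55.0, 59.1 and 48.2 in YHY. Every db/db mouse was below every Ctrl mouse, and the log2 fold change was -0.65 ± 0.13 (SE, adjusted P = 0.00064, edgeR's quasi-likelihood test with Benjamini-Hochberg adjustment). Dnajc6 encodes auxilin, which uncoats clathrin vesicles. It was at 9.51, 14.6, 11.5 and 7.6 CPM in Ctrl, at 6.92, 3.48, 3.97 and 3.81 in Model and at 0.916, 4.98, 0.521 and 3.80 in YHY. Model 1 came close to the lowest Ctrl mouse without reaching it, YHY 1 and YHY 3 were the lowest, and the db/db vs Ctrl value was -1.67 ± 0.41 (SE, adjusted P = 0.00285, edgeR's quasi-likelihood test with Benjamini-Hochberg adjustment).

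The rise nearest to Lepr was that of E130102H24Rik, singled out after its values were seen. It stood at 1.92, 2.90, 1.69 and 1.89 CPM in Ctrl, at 3.96, 8.05, 10.5 and 9.19 in Model and at 4.77, 9.51, 6.51 and 15 in YHY. All 8 db/db mice were above all Ctrl mice, by 2.00 ± 0.33 (SE) on the log2 scale, adjusted P = 0.000133 by edgeR's quasi-likelihood test with Benjamini-Hochberg adjustment. Its opposite-strand neighbour 0610043K17Rik, which overlaps it, was at 1.75 to 3.58 CPM in Ctrl and 1.49 to 3.72 in db/db, with a log2 fold change of 0.16. Whether the authors' counting used the strand is not stated, so reads of one gene of such a pair could have been counted for the other. Of the genes near Lepr, Leprot, Pde4b and the pseudogenes Gm12795 and Gm12799 did not pass the test. Leprot, which shares its first exons with Lepr, had a log2 fold change of -0.22, and Pde4b, a cAMP phosphodiesterase 0.37 Mb above, had one of 0.37. With library size as the only scaling Leprot passed at -0.62 and Pde4b turned to -0.10. The pseudogenes Gm12795 and Gm12799 gave -0.46 and 0.34 and stayed below 2 CPM.

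Further up, Sgip1, an endocytic adaptor 1.02 Mb above Lepr, was at 0.672, 1.19, 0.318 and 0.433 CPM in Ctrl, at 1.61, 2.19, 2.92 and 1.15 in Model and at 1.45, 0.774, 1.38 and 0.969 in YHY. The groups overlapped through Ctrl 2, and the db/db vs Ctrl value of 1.21 ± 0.43 (SE, adjusted P = 0.0273, edgeR's quasi-likelihood test with Benjamini-Hochberg adjustment) did not pass without Ctrl 1 (1.17), Ctrl 3 (0.93), Ctrl 4 (1.00) or Model 3 (1.08), where over all alternatives the adjusted P ran from 0.00843 to 0.122. Dnai4, a dynein chain of motile cilia, and Mier1, a chromatin regulator, start at 1.32 and 1.40 Mb and had db/db vs Ctrl values of 0.07 and 0.04. Among 25 tested genes listed by name as neighbours of Lepr, 4 were higher and 9 lower in db/db, or 52% called beside 49.5% of all genes tested, with a median of -0.22 beside 0.06 over all genes tested.

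As a whole, the window held a share of changed genes near that of the rest of the genome. For Model vs Ctrl, the comparison of genotype and diabetes without treatment, 106 of 271 members passed an adjusted P of 0.05, or 39.1%, beside 38.0% of all genes tested, 40.3% of the other genes of chromosome 4 and 37.9% on other chromosomes. By direction 45 members were higher, or 16.6% beside 19.6% of all genes tested, and 61 lower, or 22.5% beside 18.5%. YHY vs Ctrl, which shares the Ctrl mice with the previous comparison, called 135 members, or 49.8% beside 50.3% of all genes and 52.8% of the rest of chromosome 4, with 61 higher (22.5% beside 26.1% of all genes) and 74 lower (27.3% beside 24.2%). With all 8 db/db mice against the same Ctrl mice, 130 members were called, or 48.0% beside 49.5% of all genes and 50.2% of the rest of chromosome 4, 57 higher (21% beside 25.1% of all genes) and 73 lower (26.9% beside 24.4%). With both directions counted together, the shares of members lay within 2 points of those of all genes tested, which is not a result about the members. In each comparison members had a smaller share higher and a larger share lower than all genes, a difference that was not tested. Which direction held more members depended on the scaling: with upper-quartile scaling 57 were higher and 54 lower in Model vs Ctrl (21 and 19.9% beside 23.1 and 15% of all genes), 76 and 61 in YHY vs Ctrl (28 and 22.5% beside 30 and 20.7%) and 68 and 67 in db/db vs Ctrl (25.1 and 24.7% beside 29.5 and 20.6%).

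YHY vs Model compares mice that are all labelled db/db. Of the members, 43 passed, or 15.9% beside 13.3% of all genes, 12.3% of the rest of chromosome 4 and 13.3% of other chromosomes, with 14 higher (5.17% beside 5.63% of all genes) and 29 lower (10.7% beside 7.62%). This count was the least steady: it was 19 without Model 3, when 6.93% of members and 6.34% of all genes passed. It was 24 with library size as the only scaling (8.86% beside 6.75%) and 25 when the 8 db/db mice were fitted alone (9.73% beside 8.42%).

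Values that do not overlap between genotypes give a simpler count. The 4 Ctrl mice lay wholly above or below the 8 db/db mice for 74 members, or 27.3% beside 28.6% of all genes tested and 29.0% of the rest of chromosome 4, with 26 members higher in db/db (9.59% beside 13.5% of all genes) and 48 lower (17.7% beside 15.1%). Without Ctrl 2, Model 1 and YHY 4 together it was 118, or 43.7% beside 41.3%, since fewer mice leave less room for overlap. With 3 counts or fewer in every mouse of one genotype and a mean of 50 or more in the other, no member was found, in a set where 1 other gene of chromosome 4 and 6 of other chromosomes met the rule.

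**Figure D2:**
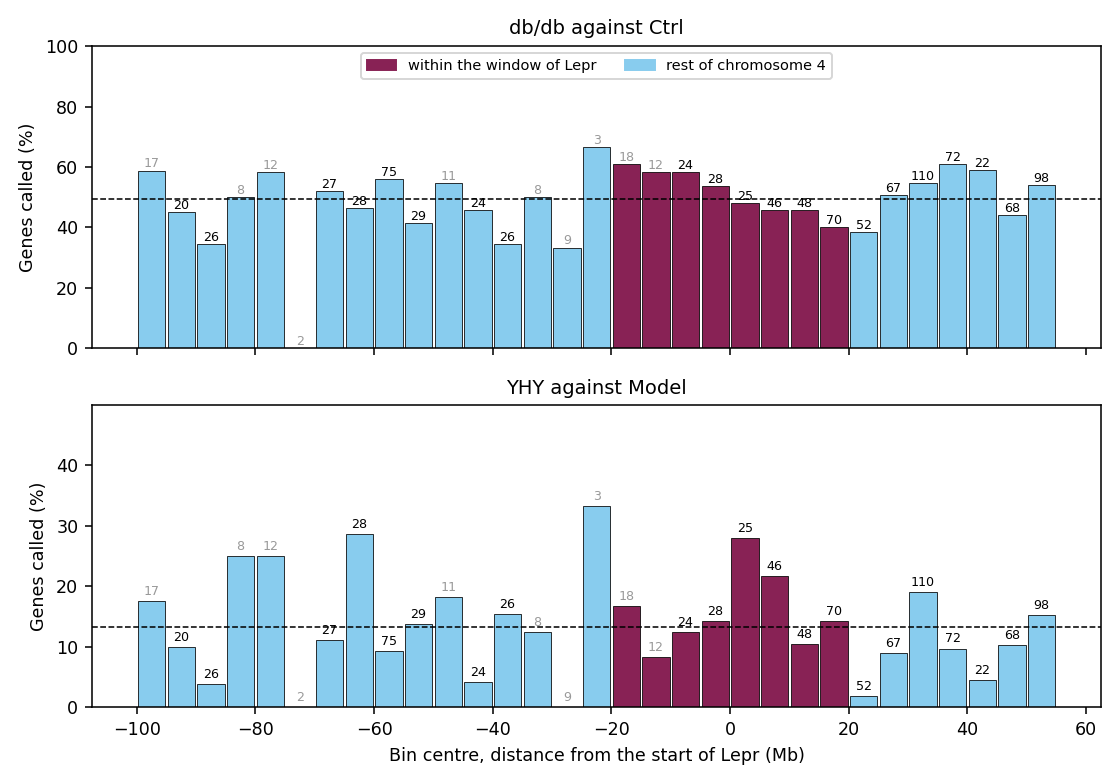
Percent of tested genes with an adjusted P under 0.05 for db/db vs Ctrl (upper) and YHY vs Model (lower) in each 5-Mb stretch of chromosome 4, by distance from Lepr in Mb, with the number of genes tested above each bar (grey under 20), the window in purple and the share over all genes tested as a dashed line. In db/db vs Ctrl stretches of at least 20 genes in the window run from 40 to 58.3%, inside the 34.6 to 61.1% seen along the rest of the chromosome.

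By distance from Lepr, 33.3% of the 12 members within 1 Mb passed for db/db vs Ctrl, beside 49.5% of all genes tested. With these included, 50.9% of the 53 members within 5 Mb passed, 50.0% of the 70 at 5 to 10 Mb, 48.3% of the 60 at 10 to 15 Mb and 44.3% of the 88 at 15 to 20 Mb. Outside the window 50.7% of 347 genes at 20 to 40 Mb passed and 49.9% of 467 beyond that. In stretches of 5 Mb with at least 20 tested genes, the 6 in the window had a median of 46.9% and the 15 elsewhere on the chromosome one of 46.4%. From the lower to the upper edge the window's 8 stretches gave 61.1, 58.3, 58.3, 53.6, 48, 45.7, 45.8 and 40%. The first pair held only 18 and 12 genes, and without them the shares ran from 58.3 to 40%, inside the 34.6 to 61.1% of the stretches elsewhere. No trend with position was tested. For YHY vs Model the shares were 20.8, 18.6, 10.0 and 14.8% in the 4 zones of the window and 11.8 and 12.6% in the pair outside, beside 13.3% of all genes tested. The 25 genes in the first 5 Mb above Lepr gave 28.0%, from 7 genes, where a stretch of 28 genes outside the window gave 28.6%.

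Sizes of change were also alike, except in YHY vs Ctrl. The median log2 fold change of the members was 0.00 for Model vs Ctrl, 0.02 for YHY vs Ctrl, -0.02 for YHY vs Model and 0.03 for db/db vs Ctrl, beside 0.04, 0.10, 0.02 and 0.06 over all genes tested. Its size regardless of sign had a median of 0.61 for db/db vs Ctrl in the window and 0.61 over all genes. These medians were 0.57 and 0.56 for Model vs Ctrl and 0.38 and 0.37 for YHY vs Model. In YHY vs Ctrl the window was lower, at 0.62 beside 0.71 over all genes and 0.73 on the rest of chromosome 4. That difference was not tested. With sign kept, the Model vs Ctrl median of the members became -0.07 without Ctrl 1, -0.10 without Ctrl 3 and -0.18 without Model 1. That of all genes became -0.01, 0.00 and -0.02. With library size as the only scaling the median of all genes shifted from 0.04 to -0.39 and that of the members to -0.43, so directions are stated relative to TMM scaling. Neighbouring tested members changed in the same direction in 132 of 270 pairs, 48.9%, beside 51.6% along the rest of chromosome 4 and 52.2% on other chromosomes.

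The larger changes were a little more frequent among members. A change past the test and over 2-fold in db/db vs Ctrl was seen in 77 members, 28.4% beside 24.2% of all genes tested and 23.3% of the rest of chromosome 4. Over 4-fold there were 25, 9.23% beside 6.68% and 6.39%. Model vs Ctrl had 60 members over 2-fold (22.1% beside 18.7%) and 22 over 4-fold (8.12% beside 5.58%), and YHY vs Ctrl 80 (29.5% beside 29.0%) and 29 (10.7% beside 8.49%). In YHY vs Model 15 members were over 2-fold (5.54% beside 3.54%) and 2 over 4-fold (0.738% beside 0.706%). In db/db vs Ctrl those over 4-fold were 15 of 82 below Lepr, or 18.3%, and above it 10 of 188, or 5.32%. Without the Cyp2j and Cyp4 genes, left out after the values were seen, 17 of 257 were over 4-fold, or 6.61%. No test of these differences was run.

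**Figure D3:**
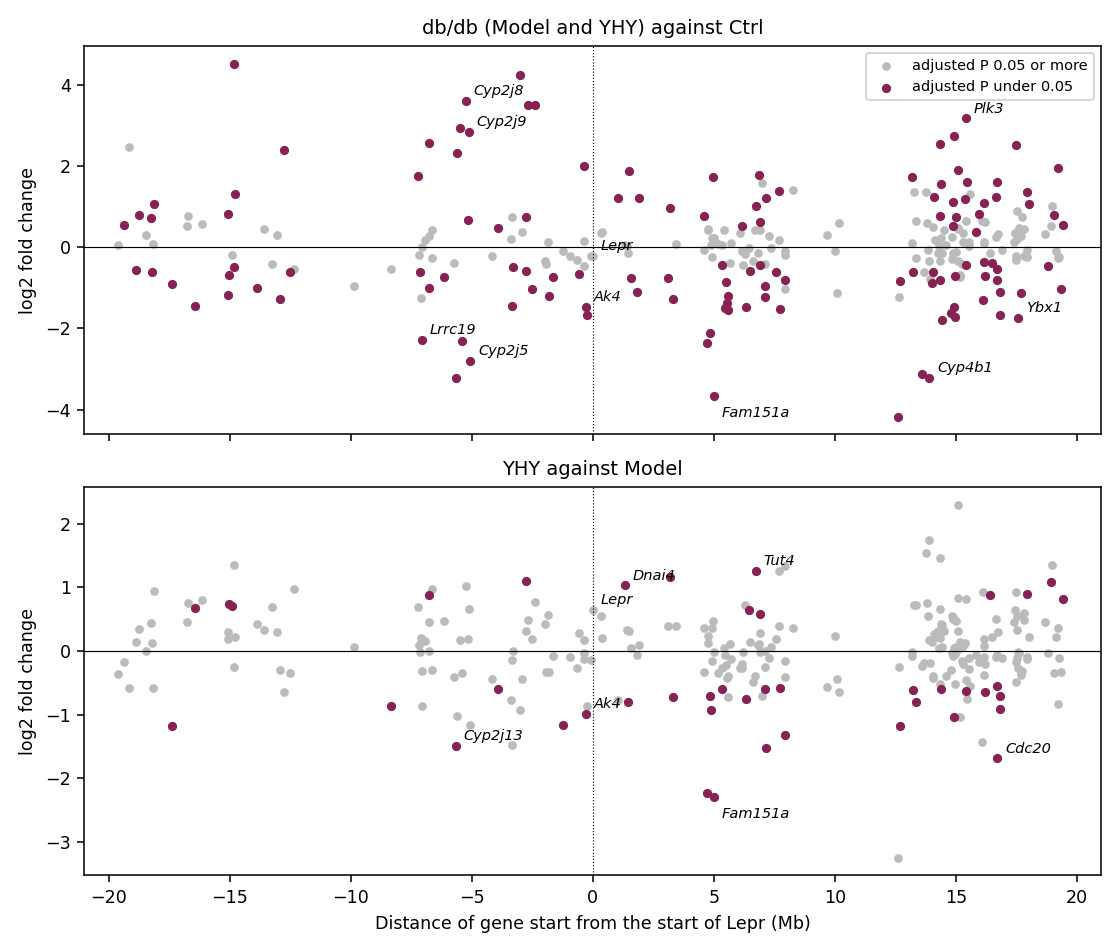
Log2 fold change of each tested member by its distance from Lepr in Mb, for db/db vs Ctrl and for YHY vs Model, with genes at an adjusted P under 0.05 in purple and others in grey. Called genes lie on both sides of 0 along the window, and the Cyp2j cluster at about -5 Mb holds both strong rises and strong falls.

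The Cyp2j cluster lies 5.06 to 5.66 Mb below Lepr. All 7 tested Cyp2j genes, of 9 in the table, differed between db/db and Ctrl, where 49.5% of all genes tested did, 3 of them lower and 4 higher. Cyp2j5 (ENSMUSG00000052520), the main epoxygenase of the mouse proximal tubule, was at 904, 892, 979 and 658 CPM in Ctrl, at 306, 145, 185 and 101 in Model and at 39.3, 88.7, 46.7 and 153 in YHY. Cyp2j13 (ENSMUSG00000028571) was at 221, 175, 124 and 69.0 CPM in Ctrl, at 32.8, 22.2, 30.0 and 21.9 in Model and at 6.6, 16.0, 3.24 and 12.4 in YHY. Cyp2j11 (ENSMUSG00000066097) was at 109, 102, 127 and 96.0 CPM in Ctrl, at 28.8, 19.8, 27.6 and 23.0 in Model and at 14, 21.8, 17.0 and 25.4 in YHY. In each of the 3 every db/db mouse lay below every Ctrl mouse, and for Cyp2j13 the YHY mice also lay below the Model mice. Cyp2j5 fell by 2.80 ± 0.31 (SE) on the log2 scale in db/db vs Ctrl, adjusted P = 3.84e-06 by edgeR's quasi-likelihood test with Benjamini-Hochberg adjustment. Cyp2j13 fell by 3.21 ± 0.32 and Cyp2j11 by 2.3 ± 0.15. In YHY vs Model Cyp2j13 fell by 1.49 ± 0.40, adjusted P = 0.0227 by edgeR's quasi-likelihood test with Benjamini-Hochberg adjustment, but did not pass without Model 1 (-1.40), Model 3 (-1.44) or YHY 1 (-1.36), nor without Ctrl 2, Model 1 and YHY 4 together (-1.54).

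Between these 3 genes lie the 4 that rose. Cyp2j9 (ENSMUSG00000015224), an epoxygenase known from brain, was at 5.79, 12.7, 6.66 and 3.21 CPM in Ctrl, at 25.5, 43.5, 44.9 and 48.8 in Model and at 35.3, 78.1, 46.2 and 97.3 in YHY. Cyp2j8 (ENSMUSG00000082932) was at 0.480, 0.967, 0.196 and 0.0455 CPM in Ctrl, at 2.58, 2.48, 4.43 and 4.57 in Model and at 5.0, 5.47, 6.40 and 11.7 in YHY. Cyp2j7 (ENSMUSG00000081362) was at 1.3, 2.47, 0.955 and 0.820 CPM in Ctrl, at 6.18, 12.6, 11.5 and 9.96 in Model and at 11.2, 22.7, 6.18 and 5.42 in YHY. The genotypes did not overlap for any of the 3, and the log2 fold changes were 2.85 ± 0.36 (SE) for Cyp2j9, 3.60 ± 0.55 for Cyp2j8 and 2.94 ± 0.43 for Cyp2j7. Adjusted P was 1.08e-05 for Cyp2j9, the most strongly supported of them, by edgeR's quasi-likelihood test with Benjamini-Hochberg adjustment. Cyp2j6 was at 35.2, 42.6, 40.9 and 36.1 CPM in Ctrl, at 48.9, 48.5, 66.6 and 65.4 in Model and at 46.2, 75.2, 57.5 and 84.0 in YHY. Its smaller rise of 0.67 ± 0.16 (adjusted P = 0.00294, edgeR's quasi-likelihood test with Benjamini-Hochberg adjustment) was 0.23 with library size as the only scaling, adjusted P = 0.263 in a range from 0.000457. Reads shared by near-identical copies of a gene family can be counted for the wrong copy or dropped, and how this was handled is not stated.

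**Figure D4:**
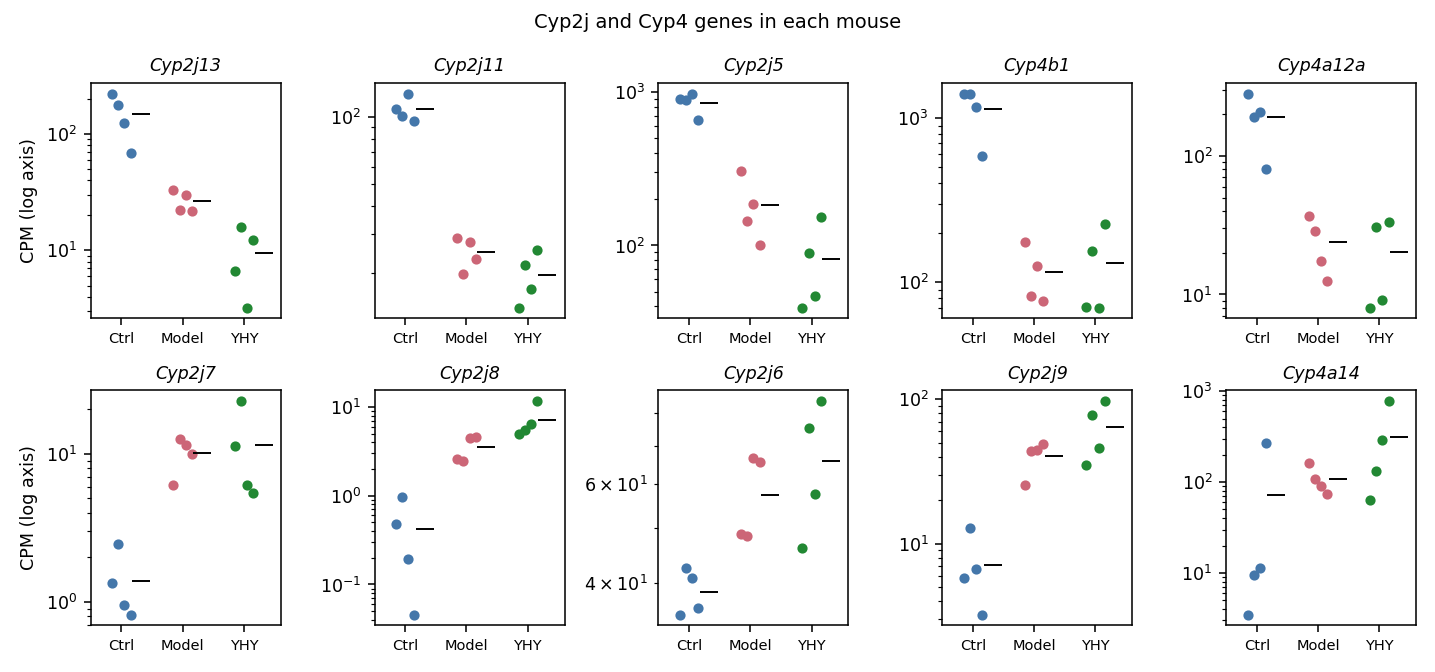
CPM of Cyp2j and Cyp4 genes of the window in each of the 12 mice (dots, log axis), by group, with the mean as a bar. Cyp2j5, Cyp2j11, Cyp2j13, Cyp4a12a and Cyp4b1 are lower and Cyp2j6, Cyp2j7, Cyp2j8 and Cyp2j9 higher in all 8 db/db mice, while Cyp4a14 is split by Ctrl 4.

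Of the Cyp4 genes, 13.58 to 13.91 Mb above Lepr, 7 of 11 were tested and 2 passed in db/db vs Ctrl, 28.6% beside 49.5% of all genes tested, both lower, with a list median of -0.34 beside 0.06 over all genes. Cyp4b1 (ENSMUSG00000028713), which oxidises fatty acids and xenobiotics, was at 1405, 1395, 1174 and 591 CPM in Ctrl, at 176, 82.4, 126 and 76.7 in Model and at 70.9, 154, 70.1 and 227 in YHY. Cyp4a12a (ENSMUSG00000066071), the arachidonic acid hydroxylase that is higher in males, was at 282, 192, 209 and 80.0 CPM in Ctrl, at 37.2, 28.5, 17.3 and 12.6 in Model and at 8.05, 30.9, 9.12 and 33.4 in YHY. In both genes all db/db mice were below all Ctrl mice, of which Ctrl 4 was the lowest. Cyp4b1 fell by 3.22 ± 0.32 (SE) on the log2 scale, 9.3-fold, with adjusted P = 1.29e-06 by edgeR's quasi-likelihood test with Benjamini-Hochberg adjustment, and Cyp4a12a by 3.11 ± 0.38. Cyp4a14, a target of the fatty acid receptor PPAR alpha, was at 3.46, 9.55, 11.3 and 266 CPM in Ctrl, at 164, 107, 90.2 and 74.4 in Model and at 64.0, 131, 291 and 778 in YHY. Ctrl 4 alone overlapped the db/db mice, and the value of 1.35 ± 0.91 (adjusted P = 0.233, edgeR's quasi-likelihood test with Benjamini-Hochberg adjustment) became 4.45 without it, adjusted P = 0.000129, in a range up to 0.784. It also passed with a term for replicate number (3.08) and with no abundance filter (1.32). Cyp4a10, another PPAR alpha target, was at 115, 202, 216 and 555 CPM in Ctrl and between 246 and 966 in db/db, and did not pass, though it did without Ctrl 4 (1.17).

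Several of these genes belong to the proximal tubule. The 7 markers of that segment summed to 4288, 5487, 4562 and 4134 CPM in Ctrl, to 3456, 3472, 3758 and 2984 in Model and to 1586, 3079, 2097 and 3969 in YHY. The sums were lower in all 8 db/db mice, none of the 7 markers was at 0, Slc34a1 was the most abundant, and 4 of the 7 were lower and 0 higher by the test, where 24.4% of all genes tested were lower and 25.1% higher in db/db vs Ctrl. The 7 markers did not move as one. In Model vs Ctrl 3 were lower and 0 higher, beside 18.5% and 19.6% of all genes tested. In YHY vs Ctrl 4 were lower and 1 higher, beside 24.2% and 26.1%. Slc5a12 had 5766 counts, before scaling, in YHY 4 and at most 956 in a Ctrl mouse. In bulk tissue fewer cells of a type and less RNA per cell cannot be told apart, and the part of the tubule markers in the falls of Cyp2j5, Cyp4b1 and their like was not tested.

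The window's share of reads was also lower in db/db. Members together held 2.17, 2.18, 2.17 and 2.12% of non-mitochondrial counts in Ctrl, 1.89, 1.65, 1.71 and 1.64% in Model and 1.55, 1.61, 1.74 and 1.96% in YHY. Every db/db mouse was below every Ctrl mouse, with means of 2.16 ± 0.0272% (SD, n = 4), 1.72 ± 0.116% and 1.71 ± 0.183%. The 10 members with the highest mean count over the 12 mice, a choice by which a gene can enter through its level in 1 genotype alone, held 1.14, 1.19, 1.15 and 1.04% in Ctrl, 0.859, 0.626, 0.676 and 0.566% in Model and 0.485, 0.517, 0.553 and 0.746% in YHY. All other members together held 0.989 to 1.08% in Ctrl and 1.03 to 1.22% in db/db, and this split depends on that choice. The mean was of unscaled counts. Non-mitochondrial counts were 22901810 to 27122687 in Ctrl and 8902764 to 17523835 in db/db, so the choice gave more weight to levels in Ctrl.

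Next to the Cyp genes, the strongest falls were spread over the window. Fam151a, 5.02 Mb above Lepr and overlapping Acot11 on the other strand, was at 3.12, 3.84, 6.24 and 2.94 CPM in Ctrl, at 1.42, 0.286, 0.594 and 0.470 in Model and at 0.0763, 0.387, 0.112 and 0.0387 in YHY. The genotypes were apart, by 3.65 ± 0.46 (SE) on the log2 scale as a fall, or 12.6-fold, adjusted P = 1.04e-05 by edgeR's quasi-likelihood test with Benjamini-Hochberg adjustment. Fam151a had 724 counts over all mice together. YHY 1, YHY 3 and YHY 4 were at the limit of detection, so the size of the fall is uncertain. Lrrc19, a membrane protein of tubule cells that overlaps Ift74 on the other strand, was at 57.2 to 81.7 CPM in Ctrl and 5.92 to 32 in db/db (median over 8 mice 15) and fell by 2.28 ± 0.29. Tspan1, a tetraspanin, was at 10.6 to 37.4 CPM in Ctrl and 2.88 to 8.95 in db/db and fell by 1.79 ± 0.29. Ybx1, an RNA-binding protein of stored mRNA, was at 754, 779, 804 and 711 CPM in Ctrl, at 265, 230, 215 and 213 in Model and at 252, 219, 264 and 176 in YHY. Its levels were tight within genotype and far apart between them, with a fall of 1.73 ± 0.13 on the log2 scale and adjusted P = 1.24e-07 by edgeR's quasi-likelihood test with Benjamini-Hochberg adjustment.

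The strongest rises outside the Cyp genes included Plk3, a stress-responsive kinase. Plk3 was at 4.68, 6.77, 4.65 and 3.98 CPM in Ctrl, at 21.8, 36.9, 41.8 and 36.8 in Model and at 37.9, 113, 18.2 and 71.9 in YHY. The YHY mice spread widely, yet all 8 db/db mice were above Ctrl, by 3.18 ± 0.40 (SE) on the log2 scale, 9.06-fold, adjusted P = 1.01e-05 by edgeR's quasi-likelihood test with Benjamini-Hochberg adjustment. Mutyh, a DNA glycosylase that removes adenine opposite oxidised guanine, was at 0.288 to 1.20 CPM in Ctrl and 1.35 to 4.79 in db/db and rose by 1.92 ± 0.43. Acer2, an alkaline ceramidase of the Golgi, was at 8.83 to 14.8 CPM in Ctrl and 25.3 to 47.8 in db/db and rose by 1.31 ± 0.18. Foxd2os, a non-coding RNA beside Foxd2, rose by 1.75 ± 0.36, while Foxd2 itself gave 0.11 ± 0.45 and did not pass. Mob3c rose by 1.24 ± 0.17. In each of these genes except Foxd2 the genotypes did not overlap.

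The members were also read by function, in lists for which no enrichment was tested. Of 9 tested genes of mitochondria and redox balance, 7 were lower and 0 higher in db/db vs Ctrl, beside 24.4% and 25.1% of all genes tested, and 8 were lower and 1 higher in YHY vs Ctrl, beside 24.2% and 26.1%. The db/db vs Ctrl values had a median of -0.77 beside 0.06 over all genes tested. Prdx1, a peroxide-reducing peroxiredoxin, was at 796, 899, 810 and 715 CPM in Ctrl, at 368, 238, 307 and 250 in Model and at 233, 225, 185 and 172 in YHY. Akr1a1, an aldehyde reductase that also makes a precursor of vitamin C in mice, was at 1416, 1716, 1434 and 1131 CPM in Ctrl, at 962, 687, 749 and 552 in Model and at 228, 381, 240 and 580 in YHY. Both were lower in all 8 db/db mice, with log2 fold changes of -1.73 ± 0.15 (SE) and -1.47 ± 0.23. Ak4, Uqcrh, a subunit of respiratory complex III, with -0.80, Oma1, a protease of the inner membrane, with -0.77, Mmachc, which processes vitamin B12, with -0.70, and Cmpk1, a nucleotide kinase, with -0.62 also fell. Tmem69 (0.25) and Urod (-0.40), an enzyme of haem synthesis, did not pass, though Urod did in 10 of 20 alternatives, 5 of which left out Ctrl 1, Ctrl 3, Ctrl 4, Model 1 or YHY 4, with values from -0.53 to -0.48.

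Among 13 tested genes of lipid and thyroid hormone handling, 1 was higher and 5 were lower in db/db vs Ctrl, or 46.2% called beside 49.5% of all genes tested, with a median of -0.15. Those lower included Scp2, Dio1 and Plin2. Scp2, a sterol carrier of peroxisomes, was at 865, 965, 969 and 599 CPM in Ctrl, at 529, 350, 419 and 289 in Model and at 189, 244, 193 and 315 in YHY. Dio1, which activates thyroid hormone, was at 15.5, 31.3, 37.2 and 24.5 CPM in Ctrl, at 10.2, 12.7, 11.8 and 13.4 in Model and at 7.67, 8.35, 4.69 and 8.52 in YHY. Both were below Ctrl in every db/db mouse, and fell by 1.47 ± 0.19 (SE) and 1.53 ± 0.20 on the log2 scale. Cpt2, which brings fatty acids into mitochondria, gave -0.42 ± 0.19 and did not pass, but did without Model 1 (-0.55) or YHY 4 (-0.56). It also passed without Ctrl 2, Model 1 and YHY 4 together (-0.58), with no abundance filter (-0.46) and with library size alone (-0.85). Faah, Acot11, Plpp3, Lrp8, Echdc2 and Hpdl did not pass either, though Faah (-0.57) and Echdc2 (-0.47) did with library size alone.

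Of 18 tested genes for kinases, cell cycle inhibitors and transcription factors, 4 were higher in db/db vs Ctrl (Plk3, Nfia and Nfib among them) and 4 lower (Jak1, Prkaa2, Cdkn2c and Ptprf), or 44.4% called beside 49.5% of all genes tested, with a median of 0.19. Prkaa2, the catalytic alpha 2 subunit of AMP-activated kinase, was at 68.2, 76.4, 78.2 and 67.4 CPM in Ctrl, at 49.7, 35.5, 40.2 and 28.8 in Model and at 22.3, 18.9, 24.5 and 27.4 in YHY. The 3 groups did not overlap, and Prkaa2 fell by 1.28 ± 0.14 (SE) in db/db vs Ctrl, adjusted P = 2.92e-06 by edgeR's quasi-likelihood test with Benjamini-Hochberg adjustment. For Cdkn2c the Model mice overlapped the Ctrl mice, and only the YHY mice lay apart. Nfia, a transcription factor, was at 44.3 to 68.0 CPM in Ctrl, 81.4 to 101 in Model and 44.5 to 73.3 in YHY, so that only Model lay apart. Its db/db vs Ctrl value of 0.48 did not pass without Ctrl 1 (0.41), Ctrl 3 (0.35) or Ctrl 4 (0.36). Ptprf, a receptor phosphatase at -0.37, did not pass without Ctrl 4 (-0.29) or with upper-quartile scaling (-0.26). With library size as the only scaling Nfia (0.05) and Nfib (0.12) did not pass.

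Of 8 tested transport genes 2 were lower and 0 higher in db/db vs Ctrl, or 25% called beside 49.5% of all genes tested, with a median of 0.00. Slc6a9, a glycine transporter, was at 2.5, 2.53, 3.48 and 4.12 CPM in Ctrl, at 0.644, 1.43, 0.548 and 1.11 in Model and at 2.21, 1.55, 1.38 and 1.94 in YHY. The genotypes did not overlap and the fall was 1.30 ± 0.30 (SE) on the log2 scale. Atp6v0b, a subunit of the proton pump, gave -0.36 ± 0.14 (adjusted P = 0.048, edgeR's quasi-likelihood test with Benjamini-Hochberg adjustment), a call that was lost in 11 of 20 alternatives, 7 of which left out Ctrl 2, Ctrl 4, Model 2, Model 3, Model 4, YHY 1 or YHY 2, with values from -0.40 to -0.29. Slc2a1, the glucose carrier GLUT1, at 0.13, and Bsnd, a chloride channel subunit, at 0.46, did not pass, though Bsnd did without Ctrl 4 (0.67). Among 6 tested translation genes, 3 were lower, or 50% beside 24.4% of all genes tested, Ybx1 and Rps6 among them, with a median of -0.26. The 17 type I interferon genes of the window were not tested, the highest count of any in a mouse being 8.

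Of the 43 members that differed between YHY and Model, 16 also passed in db/db vs Ctrl with the Ctrl mice wholly apart from the db/db mice, 37.2% beside 32% of all genes that differed between YHY and Model. Tut4 and Fyb2 were among the largest rises. Tut4, an enzyme that adds uridines to RNA ends, was at 4.11, 3.78, 4.31 and 3.23 CPM in Ctrl, at 5.02, 5.0, 4.48 and 5.90 in Model and at 12.9, 20.8, 8.11 and 7.09 in YHY. Fyb2, an adaptor of T cell signalling, was at 2.21, 3.28, 2.38 and 2.34 CPM in Ctrl, at 2.90, 3.33, 3.84 and 3.33 in Model and at 5.11, 8.96, 5.43 and 10.5 in YHY. In both genes each YHY mouse lay above each Model and Ctrl mouse. Tut4 rose by 1.26 ± 0.29 (SE) on the log2 scale in YHY vs Model, adjusted P = 0.0111 by edgeR's quasi-likelihood test with Benjamini-Hochberg adjustment, and Fyb2 by 1.16 ± 0.27, adjusted P = 0.0121, which became 0.0535 without Ctrl 2, Model 1 and YHY 4 together and was 0.000691 at its lowest.

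Fam151a and Cdc20 were among the largest falls. Cdc20, the activator of the anaphase-promoting complex, whose span overlaps Elovl1 on the other strand, was at 1.56, 1.15, 1.15 and 0.865 CPM in Ctrl, at 6.63, 6.81, 5.71 and 6.84 in Model and at 1.95, 3.32, 1.27 and 1.59 in YHY. Model was high in every mouse and YHY overlapped Ctrl, with a log2 fold change of 2.45 ± 0.32 in Model vs Ctrl, 0.76 ± 0.32 in YHY vs Ctrl, which did not pass, and -1.69 ± 0.31 in YHY vs Model, adjusted P = 0.00359 by edgeR's quasi-likelihood test with Benjamini-Hochberg adjustment. Fam151a, at 1.42, 0.286, 0.594 and 0.470 CPM in Model and at most 0.387 in YHY, overlapped between the db/db groups through Model 2 and YHY 2. With the other YHY mice at the limit of detection, the size of the Fam151a fall is uncertain. Its value of -2.29 ± 0.65 (adjusted P = 0.0304, edgeR's quasi-likelihood test with Benjamini-Hochberg adjustment) did not pass without Model 1 (-1.65), Model 3 (-2.37), YHY 1 (-2.08), YHY 3 (-2.19) or YHY 4 (-1.98), nor without Ctrl 2, Model 1 and YHY 4 together (-1.32) or with a term for replicate number (-2.27), and the adjusted P ran from 0.00517 to 0.215.

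**Figure D5:**
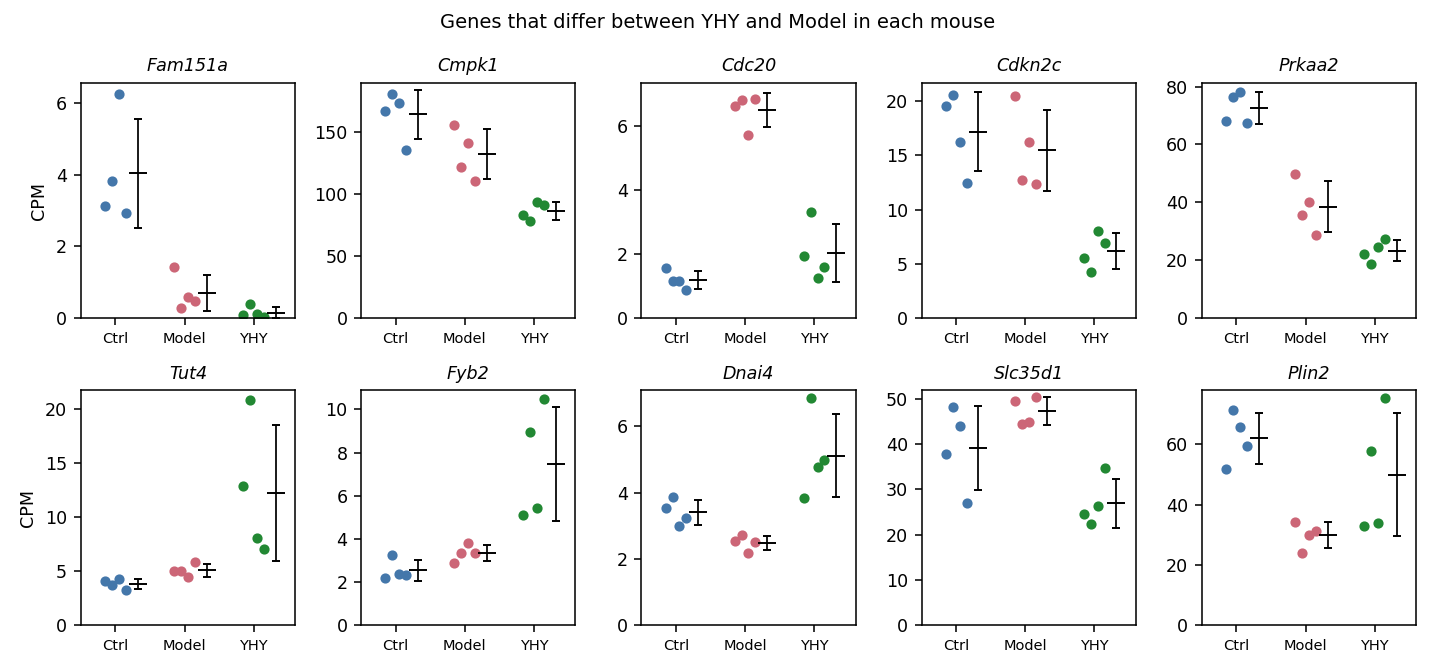
CPM of members that differed between YHY and Model in each of the 12 mice (dots), by group, with the mean and SD as bars. Tut4 and Fyb2 are highest in YHY, Dnai4 is higher in YHY than in Model, Cdc20 is high in Model alone, and Prkaa2, Cdkn2c and Cmpk1 are lowest in YHY.

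Other members that moved with YHY were Cdkn2c, Slc35d1, Dnai4 and Plin2. Cdkn2c, an inhibitor of CDK4 and CDK6, was at 19.5, 20.5, 16.3 and 12.5 CPM in Ctrl, at 20.5, 12.8, 16.2 and 12.4 in Model and at 5.57, 4.26, 8.00 and 6.94 in YHY. It was lower in all YHY mice than in any other, by -1.32 ± 0.23 (SE) vs Model, adjusted P = 0.00254 by edgeR's quasi-likelihood test with Benjamini-Hochberg adjustment. Slc35d1, a carrier of nucleotide sugars 1.45 Mb above Lepr, was at 49.4, 44.4, 44.9 and 50.4 CPM in Model and at 24.5, 22.3, 26.3 and 34.7 in YHY and fell by 0.81 ± 0.18. Dnai4 was at 2.54, 2.72, 2.19 and 2.52 CPM in Model and at 3.85, 6.86, 4.76 and 5.0 in YHY and rose by 1.03 ± 0.25. Plin2, a coat protein of lipid droplets, was at 51.8, 71.4, 65.6 and 59.3 CPM in Ctrl, at 34.2, 24, 30.0 and 31.3 in Model and at 32.8, 57.7, 34.1 and 75.3 in YHY. YHY 2 and YHY 4 reached or passed the Ctrl range and YHY 1 and YHY 3 did not, with a rise of 0.74 ± 0.23 vs Model, adjusted P = 0.0443 by edgeR's quasi-likelihood test with Benjamini-Hochberg adjustment. That call was lost in 13 of 20 alternatives, 10 of which left out 1 mouse, any but YHY 1 or YHY 3, with values from 0.47 to 0.80.

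The leptin pathway beyond the window was read for its own genes, of which 20 of 21 were tested, Lepr and Leprot among them. Compared with Ctrl, db/db mice were higher in 5 (Socs3, Stat5a, Stat5b, Pik3ca and Sh2b1) and lower in 2 (Leprotl1 and Ptpn11), or 35% called beside 49.5% of all genes tested, with a median of 0.11. Socs3, the feedback inhibitor of the receptor, was at 2.69, 2.62, 2.01 and 3.67 CPM in Ctrl, at 4.70, 4.72, 4.38 and 5.17 in Model and at 8.55, 10.3, 5.25 and 3.02 in YHY. All but YHY 4 lay above Ctrl, and the rise was 1.04 ± 0.29 (SE) on the log2 scale, adjusted P = 0.00712 by edgeR's quasi-likelihood test with Benjamini-Hochberg adjustment. With library size as the only scaling none of the 5 rises passed, Stat5b turned to -0.11, and with upper-quartile scaling neither fall passed. Stat5b (0.32) did not pass without Ctrl 1 (0.32), Ctrl 2 (0.24), Ctrl 3 (0.30), Ctrl 4 (0.26), Model 1 (0.30), Model 2 (0.33), Model 3 (0.32), Model 4 (0.27), YHY 3 (0.30) or YHY 4 (0.29), and Sh2b1 (0.43) did not without Ctrl 1 (0.35) or Ctrl 3 (0.36). Stat3 and Jak2, which carry the signal of the long isoform, had values of 0.27 ± 0.14 and -0.22 ± 0.12 and did not pass. Stat3 passed with upper-quartile scaling (0.39) and turned to -0.18, without passing, with library size alone. Jak2 passed without Model 1 (-0.30), without Ctrl 2, Model 1 and YHY 4 together (-0.38) and with library size alone (-0.66). Ptpn1 also passed with library size alone (-0.50), and Irs2 (0.49) and Foxo1 (0.44) with upper-quartile scaling.

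Markers of tissue beside the kidney were read in the same mice. The 5 adrenal cortex markers summed to 2.62, 3.00, 1.96 and 2.09 CPM in Ctrl, to 11.7, 14.5, 14.7 and 24.3 in Model and to 13.3, 17.3, 13.9 and 19.2 in YHY. Hsd3b1 had the most counts of them in every db/db mouse and Star in every Ctrl mouse. The 2 tested were both higher in db/db, and Cyp11a1, Cyp11b1 and Cyp21a1 had at most 8 counts in a mouse. The 6 fat cell markers summed to 0.182 to 0.624 CPM in Ctrl and 0.663 to 2.57 in db/db, with Cidec the most abundant and 1 of the 6 seen in every mouse. The 4 muscle markers were below 1 CPM in total in each mouse. Of the 10 other nephron markers 2 were higher and 3 lower in db/db vs Ctrl, of 7 for endothelium and stroma 1 and 1, of 6 for red cells 1 and 2, of 5 tested for immune cells 1 and 0, of 4 for liver 1 and 0, and of 5 for urothelium 0 and 0. Those 5 summed to 61.7 CPM in YHY 1, the mouse with the highest Lepr, and to 3.56 to 17.7 in the other mice. The part of any of these in the members' values was not tested.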

How the data were processed

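The per-gene counts of all 12 mice were deposited by the authors, as whole numbers with no scaling. Per the labels the authors' tools were FastQC 0.11.9, Trimmomatic 0.39, HISAT2 2.2.1, SAMtools 1.12, featureCounts 2.0.1, DESeq2 1.34.0 and R 4.1.2 on build GRCm39, with no role stated for each and no word on strand use in counting. The authors' 2 comparison tables, which hold 12 per-mouse columns, fold changes and p-values, and their pathway tables were not used.

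Members are genes of chromosome 4 starting within 20 Mb of Lepr. Members and gene lists were chosen with earlier results of these data known. All 57490 genes went through edgeR 4.0.16 in R 4.3.3: filterByExpr kept 17431, counts were scaled by TMM, and 1 quasi-likelihood fit of the 12 mice in 3 groups gave Model vs Ctrl, YHY vs Ctrl, YHY vs Model and the mean of Model and YHY vs Ctrl, with two-sided P values adjusted by Benjamini-Hochberg across the 17431 genes and a threshold of 0.05. The standard error of a log2 fold change was taken as its size divided by the square root of the F statistic. Pipelines were tested on simulated data. Lepr CPM was also compared by two-sided exact permutation tests in SciPy 1.17.1.

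Named genes are Lepr, the 5 nearest tested genes on each side, the 10 largest rises and falls in db/db vs Ctrl among called members with a symbol other than a Gm or Rik name, a mean count of at least 50 and no overlap between genotypes, the 3 largest rises and falls in YHY vs Model, members of the function lists, and the leptin signalling genes outside the window, less a few that are not reported. Promoters and microRNAs came from RefSeq tables of build GRCm38.p6.

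Total counts per mouse were 24415658 to 33276634, at which 354 members had no count in any mouse. A total of 0 to 3 counts is at the limit of detection, and such limits cover counting error only. The alternatives were other scalings (upper quartile, library size alone, without mitochondrial genes), DESeq2 1.42.0, other filters, a term for replicate number, fewer mice, narrower windows and a fold limit.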

Additional observations from a re-analysis of the deposited data

Results flagged for a closer look

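In 309 groups of 4 mice, the highest or lowest mouse stood apart from the other 3 by more than Dixon's 95% critical value in 12, or 3.88%, where chance gives about 1 in 20, or 15.4. In each of the 12 it was the highest mouse of its group. Model 1 was that mouse for Dnajc6 at 6.92 CPM, for Jun at 33.8 and for Plpp3 at 39.5. Ctrl 4 was that mouse for Leprotl1 at 29.9 CPM and for Cyp4a14 at 265.7, where the next Ctrl mouse was at 11.3. Ctrl 2 was that mouse for Foxd2os at 1.97 CPM, for Fyb2 at 3.28 and for the mitochondrial share of counts at 22.7%. YHY 4 stood apart for Cyp4a32 at 2.75 CPM and for Mmachc at 14.6, Model 3 for Artn at 2.42 and YHY 2 for the mitochondrial share at 64.6%. No explanation was tested for any of these.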

How the results depend on the processing

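The counts of members kept within 1.5 times their value in 106 of 124 comparisons with an alternative. Of the Lepr values, 79 of 80 kept their side of the threshold and 77 their direction, the other 3 being YHY vs Ctrl, which ran from -0.28 to 0.35. Of the values of other named genes, 2168 of 2330 kept their side and 2242 their direction, and of the 88 that turned, 86 passed neither before nor after. In YHY vs Model only Lepr and the named genes that passed there were followed. With library size as the only scaling YHY vs Model called 24 members, the Model vs Ctrl median was -0.43 (all genes -0.39), and the other 2 of the 88 turned, Mast2 to -0.41 and Stat5b to -0.11. There 23 members were higher and 95 lower in Model vs Ctrl (8.49 and 35.1% beside 8.87 and 32.5% of all genes), 31 and 103 in YHY vs Ctrl (11.4 and 38.0% beside 13.6 and 34.3%), 30 and 113 in db/db vs Ctrl (11.1 and 41.7% beside 12.3 and 38.0%), and 85 were apart (31.4% beside 31.0%). The Model vs Ctrl median was 0.10 with upper-quartile scaling and -0.057 with at least 10 counts in every mouse.

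Medians from here on are those of Model vs Ctrl. Without Ctrl 2, Model 1 and YHY 4 together the median was -0.14 and 118 members were apart. Lepr in Model vs Ctrl was then -0.96 (adjusted P = 0.0468, range 0.0468 to 0.587, edgeR's quasi-likelihood test with Benjamini-Hochberg adjustment). Fitting only the 8 mice compared gave 25 members in YHY vs Model and, in a separate fit, a Model vs Ctrl median of -0.066. Of the 123 members within 10 Mb, 52, 61, 24 and 62 were called for Model vs Ctrl, YHY vs Ctrl, YHY vs Model and db/db vs Ctrl (42.3, 49.6, 19.5 and 50.4%, beside 38.0, 50.3, 13.3 and 49.5% of all genes), 37 were apart (30.1% beside 28.6%) and the median was -0.13 (all genes 0.04). Of the 53 within 5 Mb, 23, 26, 11 and 27 were called (43.4, 49.1, 20.8 and 50.9%), 13 were apart (24.5%) and the median was -0.13. These counts are lower because fewer members were counted. With a fold over 2 as well they were 60, 80, 15 and 77. For protein-coding members the median was -0.10. That setting and leaving out Cyp2j and Cyp4 genes were chosen after seeing the data.

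Leaving out each mouse in turn gave 89 to 116 members for Model vs Ctrl (33.1 to 42.8%, all genes 29.3 to 39.9%), 114 to 136 for YHY vs Ctrl (42.2 to 50.2%, all genes 43.9 to 50.2%), 19 to 47 for YHY vs Model (6.93 to 17.3%, all genes 6.34 to 15.3%), 117 to 142 for db/db vs Ctrl (43.5 to 52.4%, all genes 42.1 to 50.4%), 73 to 91 apart (26.6 to 33.6%, all genes 28.3 to 33.6%) and a median from -0.18 to 0.016. A term for replicate number gave 101, 127, 36 and 134 (37.3, 46.9, 13.3 and 49.4%, beside 36.1, 48.3, 11 and 47.6% of all genes) and a median of -0.01, but the numbers do not pair mice: 3 of 12 same-number pairs correlated above 0.1 across genes, from -0.23 to 0.19. DESeq2 called 120 of 316, 147 of 329, 54 of 269 and 137 of 329 members (38.0, 44.7, 20.1 and 41.6%, beside 34.6, 43.6, 18.0 and 43.1% of all genes). Apart from counts set by fewer members, mice or a fold limit, the cause was not tested. Depth limits members at few counts: 520 of 791 were not tested.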
